A study of Mus musculus with 24 samples.

Results

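Transcripts of 10 genes of transforming growth factor beta (TGF-beta) signalling were followed across mouse B cell lymphomas: the ligand Tgfb1, the receptor chains Tgfbr1 and Tgfbr2, the signal transducers Smad2, Smad3 and Smad4, the inhibitor Smad7, and the repressors Ski, Skil and Tgif1. They were taken by symbol from a table of 11140 genes, in which all 10 have a row, and all 10 passed the filter on low counts. RNA was sequenced from purified splenic B lymphoma cells of C57BL/6 mice, and every mouse carried a Bcl6 transgene (Bcl6Tg/+). In the T cell sufficient group of 12 lymphomas this was the only labelled allele, and the 11 lymphomas of the T cell deficient group came from mice that also lacked the CD3 epsilon chain (Bcl6Tg/+CD3Epsilon-/-), without which T cells do not develop. No group lacks the transgene, and the sources used here give neither the ages of the mice nor the promoter of the transgene. The series asks how lymphomas that arose without T cells differ from those that arose with them.

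TGF-beta is a cytokine that restrains the growth of B cells and steers their switching to immunoglobulin A. The ligand binds the type II receptor TGFBR2, which recruits and phosphorylates the type I receptor TGFBR1, and this kinase phosphorylates SMAD2 and SMAD3. The phosphorylated SMADs join SMAD4 and act on genes in the nucleus, SMAD7 blocks the receptor, and the products of Ski, Skil and Tgif1 bring corepressors to the SMAD complex.

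Libraries were sequenced in 2 runs, with 7 sufficient and 5 deficient lymphomas in run 1 and 5 and 6 in run 2. Depth was 7.58 to 30.6 M counts (M, mega), with a median of 14.5 M in the sufficient and 21.6 M in the deficient group. Levels are given in CPM, counts per M counts with library sizes scaled by TMM, and 3 counts were worth 0.0980 to 0.396 CPM. B cell markers were abundant throughout, with a summed level of 4972 to 11065 CPM over 8 genes in sufficient and 3480 to 8575 CPM in deficient libraries. Of these 8 markers, 4 were lower in deficient lymphomas, with a median log2 fold change of -0.39 over the 8. The summed level of 13 measured monocyte and macrophage markers, of 14 listed, ran from 239 to 2840 CPM (median 748) in sufficient and from 168 to 749 CPM (median 321) in deficient libraries, and no measured marker was at 0 in a whole group. The highest sum was that of sufficient library 11, and the next was 964 CPM in sufficient library 5. Of these 13 markers, 2 were lower in deficient lymphomas, Lyz2 and Itgam, and 11 did not pass, with a median log2 fold change of -0.97. T cell markers, 8 of 12 measured, summed to 240 to 838 CPM and 207 to 882 CPM, most of it Lck and Cd2, and 1 of them, Cd2, fell. Cd3e, the deleted gene, stood at 0 to 2.46 CPM in sufficient and 0.721 to 5.77 CPM in deficient libraries, so that in these B cells it does not check the labels. Of the markers of other cells, 1 of 3 measured for natural killer cells rose, 1 of 4 for plasma cells and 2 of 4 for stroma and endothelium fell, and those for neutrophils (3) and erythroid cells (5) did not pass. None of 8 platelet markers had a row. The part of other cells in the results below was not tested beyond the fits with marker sums as covariates. Sufficient libraries 9, 10 and 11 stood apart in holding more than 20 CPM of both Xist, which is made from the inactive X chromosome, and the Y-linked Ddx3y. Deficient libraries 2, 5 and 10 held 250 to 1056.5 CPM of Xist, and the other deficient libraries at most 3.39 CPM. Sufficient libraries 1, 3 and 8 to 12 held 84.3 to 1340 CPM, and the other sufficient libraries at most 5.64 CPM. Xist was thus unevenly spread between the groups, and the part of sex was not tested beyond fits with Xist and Ddx3y as covariates. At a lower bar of 1 CPM, 8 sufficient and 4 deficient libraries held both Xist and a Y-linked transcript. For the 10 genes and the named genes of the pathway, calls that change when these libraries are left out are given below.

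Of the 10 genes, 2 fell and 1 rose in T cell deficient lymphomas, and 7 did not pass the test. Tgfbr2, the type II receptor, and Smad3 fell, and Tgfbr1, the type I receptor, rose. A gene was called at a Benjamini-Hochberg adjusted p under 0.05 in the quasi-likelihood test of edgeR, which held sequencing run as a covariate and was adjusted over the whole table. Of the 11020 genes tested, 22.2% were called, 10.6% as higher (1163) and 11.7% as lower (1285). Scaling by library totals only, without TMM, turned this split to 1608 higher and 1027 lower, and the same 3 of the 10 genes kept their directions. A count of 3 in 10 beside that background says nothing particular of the pathway, and the values of the single genes follow. The median log2 fold change was -0.19 over the 10 genes and -0.01 over all genes tested.

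The 300 bases around the annotated start (250 before it and 50 after) of the 3 called genes are shown because these are the genes that moved. They come from RefSeq on GRCm38.p6, which holds such a window for 6 of the 10 genes, and are printed 5′ to 3′ on the strand of the gene. Capitals mark the SMAD-binding motif CAGAC and the GC box GGGCGG on either strand. The windows are chr4:47352972-47353271 on the plus strand for Tgfbr1, chr9:116175314-116175613 on the minus strand for Tgfbr2 and chr9:63757945-63758244 on the minus strand for Smad3.
Tgfbr1: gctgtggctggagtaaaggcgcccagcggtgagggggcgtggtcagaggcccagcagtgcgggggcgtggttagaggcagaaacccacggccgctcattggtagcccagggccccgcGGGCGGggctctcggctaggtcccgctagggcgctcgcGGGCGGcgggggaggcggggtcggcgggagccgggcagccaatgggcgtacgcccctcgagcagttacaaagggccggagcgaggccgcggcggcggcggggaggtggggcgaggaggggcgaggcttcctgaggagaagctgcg
Tgfbr2: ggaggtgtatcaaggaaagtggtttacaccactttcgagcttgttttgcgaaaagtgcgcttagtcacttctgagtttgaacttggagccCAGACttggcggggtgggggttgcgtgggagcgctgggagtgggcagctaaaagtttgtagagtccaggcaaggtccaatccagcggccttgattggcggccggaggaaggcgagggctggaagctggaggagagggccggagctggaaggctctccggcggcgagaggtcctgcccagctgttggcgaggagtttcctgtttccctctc
Smad3: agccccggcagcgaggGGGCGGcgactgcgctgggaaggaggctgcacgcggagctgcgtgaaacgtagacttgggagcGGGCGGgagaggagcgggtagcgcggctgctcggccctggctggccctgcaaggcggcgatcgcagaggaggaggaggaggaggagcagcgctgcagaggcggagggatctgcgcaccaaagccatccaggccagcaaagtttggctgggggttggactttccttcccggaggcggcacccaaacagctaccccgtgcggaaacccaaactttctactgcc

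The window of Tgfbr2 held 1 CAGAC and no GGGCGG, with 59.0% G and C. Those of Tgfbr1 and Smad3 held 2 GGGCGG each and no CAGAC, with 74.7% and 67.7% G and C. No base was shared by matches of both motifs, and none of the 3 windows held the palindromic SMAD motif GTCTAGAC. Among 32851 such windows of mouse genes, 49.6% held CAGAC, 35.7% GGGCGG and 0.213% GTCTAGAC. A match is a description of the letters and not a bound site.

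Tgfbr2 lies on chromosome 9 at 116084293 to 116175360 (GRCm38, minus strand). Its level ran from 197 CPM through a median of 378 to 568.4 CPM in the 12 sufficient libraries, and from 116 CPM through 196 to 313 CPM in the 11 deficient libraries. Of the sufficient libraries, 8 lay above every deficient one, and 6 deficient values were under the lowest sufficient value. Sufficient lymphomas averaged 374 CPM ± 109 (SD, n = 12). Deficient lymphomas averaged 195 CPM ± 53.6 (SD, n = 11), 2.01-fold lower (95% interval of the ratio 0.407 to 0.611, edgeR adjusted p = 0.000230). A permutation of the groups within runs gave p = 6e-05 (two-sided, 100000 draws). The same permutation, not adjusted over genes, gave p = 0.00046 for Smad3 and 0.00395 for Tgfbr1. It gave 0.0103 for Tgfb1, 0.0123 for Smad7 and 0.0377 for Tgif1, which edgeR did not call. For Ski, Smad2, Skil and Smad4 the permutation p ran from 0.177 to 0.924.

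The fall of Tgfbr2 was of like size in both runs. In run 1 the sufficient mean was 337 CPM ± 118 (SD, n = 7) beside a deficient mean of 160 CPM ± 36.3 (SD, n = 5; exact permutation p = 0.00505, 792 splits, two-sided). Run 2 averaged 426 CPM ± 77.1 (SD, n = 5) and 224 CPM ± 49.6 (SD, n = 6; exact permutation p = 0.00433, 462 splits). A fit of run 1 by itself gave Tgfbr2 an adjusted p of 0.0957, and edgeR called 0 of 11064 genes there (1832 had an unadjusted p under 0.05). When the 12 libraries with Xist and a Y-linked transcript were left out, Tgfbr2 stood at -0.86 on the log2 scale (adjusted p = 0.0890), and at -0.99 without only the 3 above 20 CPM (adjusted p = 0.00248). With the summed monocyte and macrophage markers as a covariate it was -1.09 (adjusted p = 0.000436). In purified bulk cells, fewer cells that express a gene and less RNA per cell cannot be told apart.

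Tgfbr1 moved the other way. It lies on chromosome 4 at 47353222 to 47414931 (plus strand). Its level ran from 27.8 CPM through a median of 40.0 to 79.5 CPM in sufficient libraries and from 31.0 CPM through 96.1 to 142 CPM in deficient libraries. Here 7 of 11 deficient libraries exceeded every sufficient one, while deficient libraries 7 and 9, at 31.0 and 34.3 CPM, lay among the lower sufficient values. Sufficient lymphomas averaged 45.4 CPM ± 16.0 (SD, n = 12) and deficient lymphomas 91.6 CPM ± 37.6 (SD, n = 11), a 1.90-fold rise (log2 fold change 0.93 ± 0.25 SE, edgeR adjusted p = 0.0105).

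The rise of Tgfbr1 was seen mainly in run 2. There the deficient libraries (72.4 to 142 CPM) all exceeded the sufficient ones (33.7 to 58.2 CPM), and the exact permutation p was 0.00216 (462 splits). In run 1 the ranges were 27.8 to 79.5 CPM and 31.0 to 111 CPM and overlapped (exact permutation p = 0.307, 792 splits). The interaction of run and group did not pass (log2 difference 0.86 ± 0.45 SE, edgeR adjusted p = 0.762). The call was lost without sufficient libraries 9, 10 and 11 (log2 fold change 0.89, adjusted p = 0.0601) and with the monocyte and macrophage markers as a covariate (0.76, adjusted p = 0.0598). Without the 12 libraries with both Xist and a Y-linked transcript the log2 fold change was 1.65 (adjusted p = 0.00664).

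**Figure D1:**
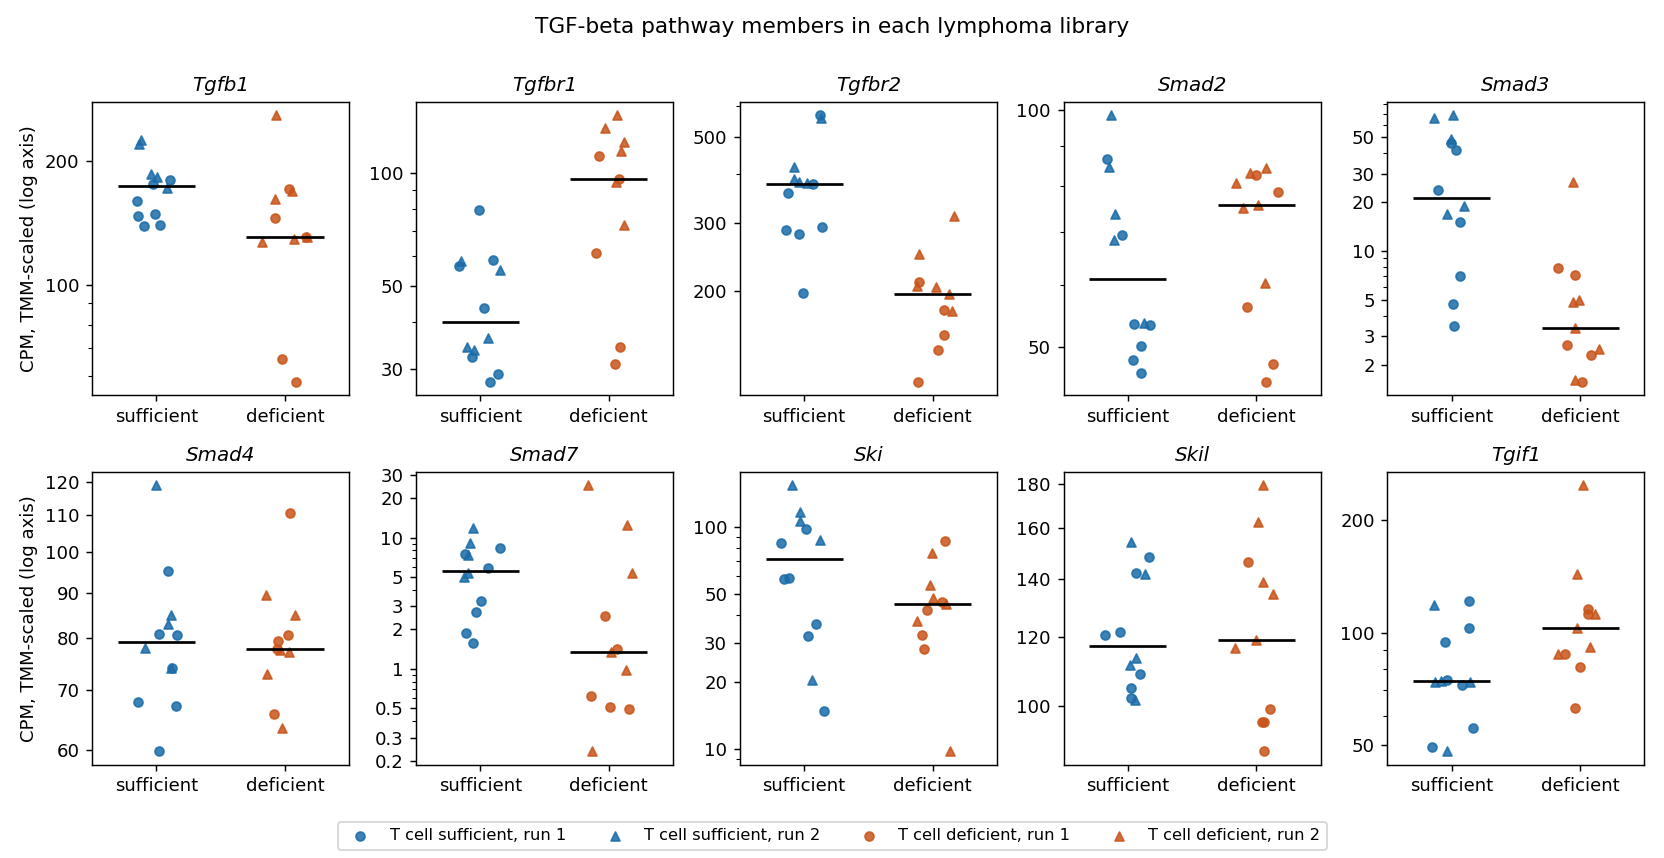
Level of each of the 10 genes in every library, in TMM-scaled CPM on log axes that differ between panels. Circles are run 1, triangles run 2, and bars are group medians. Tgfbr2 and Smad3 sit lower and Tgfbr1 higher in most of the 11 deficient libraries, while Smad2, Smad4 and Skil overlap.

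Since the chains of the receptor moved in opposite directions, their ratio was described per library, a choice made after their values were seen and therefore not tested. Levels were divided by the exon length of each gene in GENCODE M21 (6.53 kb for Tgfbr1 and 8.19 kb for Tgfbr2) so that the genes can be compared. On this scale Tgfbr2 was the more abundant chain in all 23 libraries. In sufficient libraries the ratio of Tgfbr2 to Tgfbr1 ran from 2.69 through a median of 7.77 to 10.8, and in deficient libraries from 1.25 through 1.52 to 3.61. Of the sufficient libraries, 10 lay above every deficient one, and the other 2 were libraries 4 (2.82) and 5 (2.69), both of run 1. In run 2 the groups did not overlap, with sufficient ratios from 5.49 to 9.92 and deficient ratios from 1.25 to 2.25.

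**Figure D2:**
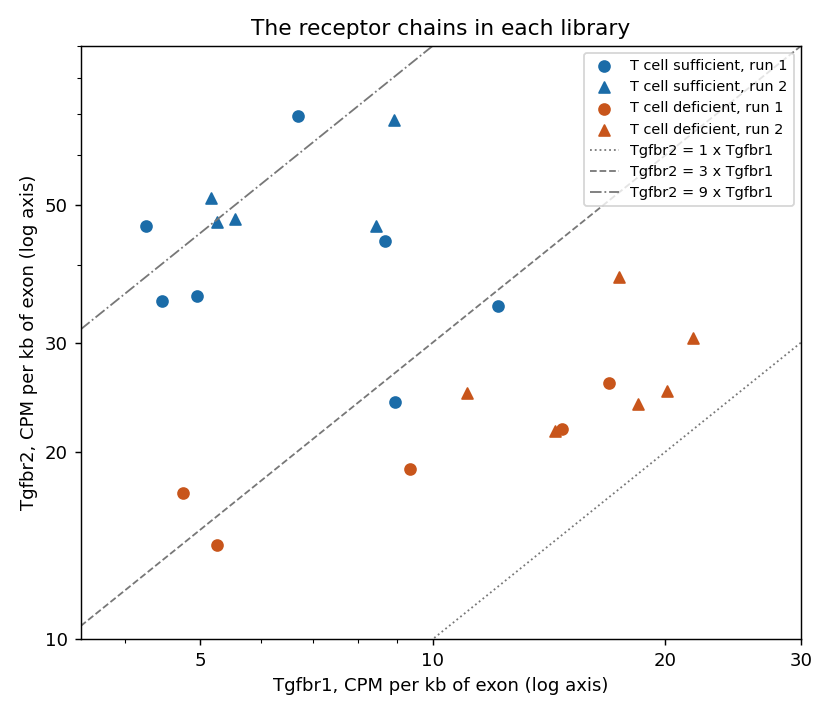
Level of Tgfbr2 against Tgfbr1 in each library, both in CPM per kb of exon on log axes, with lines where Tgfbr2 is 1, 3 or 9 times Tgfbr1. Sufficient libraries lie towards the upper left and deficient libraries towards the lower right. Sufficient libraries 4 and 5 and deficient libraries 7 and 9 lie near the line for 3 times.

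Of the receptor-activated SMADs, Smad3 fell and Smad2 did not pass the test. Smad3 lies on chromosome 9 at 63646767 to 63757994 (minus strand). It ran from 3.48 CPM through a median of 21.3 to 68.3 CPM in sufficient libraries, a 19.6-fold range, and from 1.57 CPM through 3.34 to 26.5 CPM in deficient libraries. Of 11 deficient libraries, 10 were at or below 7.89 CPM and 6 were below every sufficient one, and deficient library 5 alone reached 26.5 CPM. The sufficient mean was 30.1 CPM ± 23.2 (SD, n = 12), and the deficient mean of 5.93 CPM ± 7.15 (SD, n = 11) marked a 5.31-fold fall (log2 fold change -2.41 ± 0.53 SE, edgeR adjusted p = 0.00341). The exact permutation p was 0.0404 in run 1 and 0.00866 in run 2. Fitted alone, run 1 gave a log2 fold change of -2.24 (adjusted p = 0.183) and run 2 one of -2.58 (adjusted p = 0.0447). The call was also lost without the 12 libraries with both Xist and a Y-linked transcript (log2 fold change -2.61, adjusted p = 0.230), but not without the 3 above 20 CPM (adjusted p = 0.0167).

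Smad2, the close relative of Smad3, ran from 46.5 CPM through 61.1 to 98.4 CPM in sufficient and from 45.2 CPM through 75.7 to 84.4 CPM in deficient libraries. The groups overlapped, with 3 sufficient libraries above and 1 deficient library below the range of the other group (log2 fold change 0.05 ± 0.13 SE, edgeR adjusted p = 0.786). The 95% interval of the fold change, 0.872 to 1.24, leaves out a change as large as that of Smad3. Smad4, the common partner of both, ran from 59.7 CPM through 79.3 to 119 CPM and from 63.4 CPM through 77.9 to 111 CPM. Its log2 fold change was -0.01 ± 0.10 SE (edgeR adjusted p = 0.944), with a 95% interval of the fold change from 0.861 to 1.14. Per kb of exon, Smad3 averaged 5.43 CPM ± 4.19 (SD, n = 12) in sufficient lymphomas beside 7.47 CPM ± 1.98 for Smad2. In deficient lymphomas the levels per kb were 1.07 CPM ± 1.29 (SD, n = 11) for Smad3 and 7.97 CPM ± 1.68 for Smad2. Smad2, Smad4 and Smad7 all lie on chromosome 18.

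For the ligand the call turned on the tool and on the libraries included, and the inhibitor was not called in any fit made here. Tgfb1, the TGF-beta 1 ligand, lies on chromosome 7 at 25687002 to 25705077 (plus strand). It ran from 139 CPM through a median of 173 to 224 CPM in sufficient and from 58.1 CPM through 131 to 257 CPM in deficient libraries. Deficient libraries 9 and 7 were lowest, at 58.1 and 66.0 CPM, deficient library 6 was highest, and 6 of 11 deficient values were under the whole sufficient range. With a log2 fold change of -0.36 ± 0.16 SE, Tgfb1 was not called (edgeR adjusted p = 0.101). The call was reached without deficient library 6 (-0.45, adjusted p = 0.0323), with limma-voom (-0.45, adjusted p = 0.0474) and with T cell markers as a covariate (-0.42, adjusted p = 0.0264). Without deficient libraries 7 and 9 it was -0.17 (adjusted p = 0.307), and without the 12 libraries with both Xist and a Y-linked transcript -0.09 (adjusted p = 0.876). The authors' deposited table gives Tgfb1 a log2 fold change of -0.45 with an adjusted p of 0.0474.

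Smad7, which TGF-beta itself induces and which shuts off the receptor, was the least abundant of the 10 genes, with 5 to 575 counts per library. It ran from 1.57 CPM through a median of 5.603 to 11.9 CPM in sufficient libraries. In deficient libraries it ran from 0.235 CPM through 1.34 to 25.1 CPM, a 107-fold range. Of the 11 deficient libraries 7 lay below every sufficient one, while libraries 6 (25.1 CPM) and 1 (12.5 CPM) lay above all of them. In run 1 the sufficient mean was 4.47 CPM ± 2.78 (SD, n = 7) beside a deficient mean of 1.11 CPM ± 0.876 (SD, n = 5; exact permutation p = 0.0101, 792 splits). Run 2 averaged 7.74 CPM ± 2.86 (SD, n = 5) and 7.60 CPM ± 9.73 (SD, n = 6; exact permutation p = 0.279, 462 splits). Over both runs edgeR gave -1.02 ± 0.63 SE on the log2 scale (adjusted p = 0.254), while the permutation within runs gave an unadjusted p of 0.0123. Without deficient library 6 the edgeR value was -1.47 (adjusted p = 0.0524). The authors' deposited table gives -1.56 with an adjusted p of 0.0366, while limma-voom as run here did not call Smad7.

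None of the 3 repressors passed the test in edgeR, and 1 of them, Tgif1, had an unadjusted p under 0.05 (0.0372). Under no alternative run did Ski, Skil or Tgif1 pass. Ski, the founding member of its family of SMAD corepressors, lies on chromosome 4 at 155154075 to 155222592 (minus strand). It was uneven in both groups, from 14.9 CPM through 71.9 to 154 CPM in sufficient and from 9.75 CPM through 44.9 to 86.0 CPM in deficient libraries. Of the sufficient libraries, 5 lay above every deficient one (log2 fold change -0.64 ± 0.35 SE, edgeR adjusted p = 0.187). Skil, which encodes the related repressor SnoN, lies on chromosome 3 at 31095058 to 31122577 (plus strand). It was the steadiest of the 10 genes within the sufficient group, from 102 CPM through 117 to 154 CPM, a 1.52-fold range. In the deficient group it ran from 88.8 CPM through 119 to 179 CPM, with 4 values below and 2 above the sufficient range (log2 fold change -0.01 ± 0.11 SE, edgeR adjusted p = 0.940, 95% interval of the fold change 0.849 to 1.15).

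Tgif1, a homeodomain repressor that binds SMADs, lies on chromosome 17 at 70844205 to 70853546 (minus strand). It ran from 48.1 CPM through 74.1 to 122 CPM in sufficient and from 62.8 CPM through 103 to 248 CPM in deficient libraries, the highest being deficient library 6. Its log2 fold change was 0.45 ± 0.20 SE (edgeR adjusted p = 0.113). It shrank to 0.13 (adjusted p = 0.631) with the monocyte and macrophage markers as a covariate and to 0.28 (adjusted p = 0.388) with Xist and Ddx3y. The exact permutation p was 0.443 in run 1 and 0.0411 in run 2, where sufficient lymphomas averaged 77.6 CPM ± 25.4 (SD, n = 5), below the 131 CPM ± 60.8 (SD, n = 6) of deficient ones.

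Levels per kb of exon placed the 10 genes in an order in which the receptor chains, Tgfb1, Ski and Smad2 changed rank between the groups. In sufficient lymphomas Tgfbr2 was first at 45.7 CPM per kb ± 13.3 (SD, n = 12), followed by Tgfb1 (34.2 ± 5.62), Smad4 (21.7 ± 4.13), Tgif1 (14.2 ± 4.38), Ski (12.98 ± 7.65), Skil (12.7 ± 1.963), Smad2, Tgfbr1 (6.95 ± 2.45), Smad3 and Smad7 (1.29 ± 0.701). Neighbours from Tgif1 to Skil and from Smad2 to Smad3 lay within 1 SD of each other. In deficient lymphomas Tgfb1 was first at 27.8 CPM per kb ± 10.6 (SD, n = 11), before Tgfbr2 (23.8 ± 6.55), Smad4 (21.6 ± 3.41) and Tgif1 (20.1 ± 8.82). Tgfbr1 held rank 5 there at 14.0 ± 5.75, against rank 8 in sufficient lymphomas. The first 4 genes of the deficient order lay within 1 SD of their neighbours.

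Within the deficient group 2 pairs of the 10 genes passed by Pearson's r, Tgfbr2 with the ligand and Tgfbr2 with Skil. Log2 CPM were correlated between all 45 pairs of the 10 genes within each group, with groups never pooled, and p-values from permutations within runs were adjusted over the 90 correlations. For Tgfbr2 and Skil in the 11 deficient libraries Pearson's r was 0.931 (permutation p = 0.00034, adjusted p = 0.0297) and Spearman's rho 0.936 (permutation p = 0.00127, adjusted p = 0.0976). It was 0.823 in run 1, 0.932 in run 2, and 0.899 without the 2 libraries farthest from the median of Tgfbr2. For Tgfb1 and Tgfbr2 r was 0.898 (permutation p = 0.00066, adjusted p = 0.0297) and rho 0.800 (permutation p = 0.00217, adjusted p = 0.0976), with 0.889 in run 1, 0.903 in run 2 and 0.807 without the 2 farthest libraries. These were 2 of 45 pairs in the deficient group (10 had an unadjusted permutation p under 0.05) and none of 45 in the sufficient group by Pearson's r (4 had an unadjusted p under 0.05 there). None passed in either group by rho. In deficient libraries Tgfbr2 also had an r of 0.814 with Tgfbr1 (rho 0.818), 0.769 with Smad2 (rho 0.818) and 0.731 with Tgif1 (rho 0.600). These did not pass (adjusted permutation p = 0.164, 0.186 and 0.249 for r). With Smad7, Smad3, Smad4 and Ski its r was 0.422, 0.00192, -0.220 and -0.324. In the 12 sufficient libraries r was 0.188 for Tgfbr2 and Skil (permutation p = 0.520, adjusted p = 0.780, rho 0) and 0.552 for Tgfb1 and Tgfbr2 (permutation p = 0.143, adjusted p = 0.430, rho 0.734). Whether the groups differ in these correlations was not tested.

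**Figure D3:**
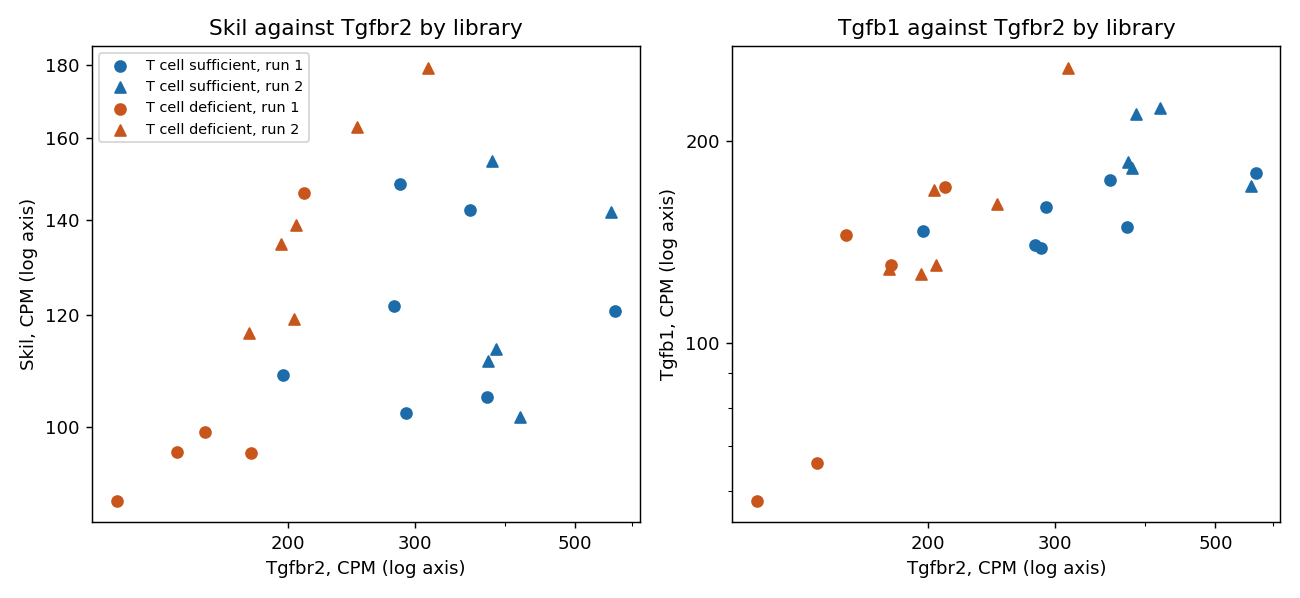
Level of Skil (left) and Tgfb1 (right) against Tgfbr2 in each library, in CPM on log axes. In the 11 deficient libraries both rise with Tgfbr2 (r = 0.931 and 0.898 on the log2 scale), and the 12 sufficient libraries form a wider cloud for Skil.

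Over all 23 libraries, the genes whose standardised log2 CPM lay nearest to that of Tgfbr2 were B4galt7, a galactosyltransferase of proteoglycan synthesis, Acox3, an acyl-CoA oxidase of peroxisomes, and Vps41, a part of the HOPS tethering complex. Their root mean square differences from Tgfbr2 were 0.450, 0.483 and 0.502 SD, against a median of 1.41 SD over all genes. Nearest to Smad3 were Zfp961 (0.609 SD), the phosphatase gene Ppm1l (0.611 SD) and the protocadherin gene Pcdhb22 (0.618 SD). Each of these genes was picked for its nearness, so the gap from the median is no test. The measure spans both groups, and each of these genes was itself lower in deficient lymphomas (edgeR adjusted p from 0.000370 to 0.00532).

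Among the other genes of the pathway, 6 rose and 3 fell of 67 tested, and 58 did not pass. The count of 9 depended on the libraries included. Of these 9, Lrrc32 and Rbl1 passed without sufficient libraries 9, 10 and 11, and Acvr2a, Cdkn1a, Cdkn1b, E2f4, Thbs1, Trim33 and Zeb2 did not. Without the 12 libraries with both Xist and a Y-linked transcript, which leaves 4 sufficient and 7 deficient, 1 of the 9, Trim33, passed. In run 1 alone 0 of the 9 passed in edgeR, and in run 2 alone Acvr2a and Trim33 did. With any 1 library left out, Lrrc32, Rbl1, E2f4, Zeb2 and Trim33 passed in each of 23 fits, while Acvr2a failed in 15, Cdkn1a and Cdkn1b in 12 each and Thbs1 in 11. Without both deficient libraries 7 and 9, E2f4 (edgeR adjusted p = 0.0637), Cdkn1a and Cdkn1b did not pass. With Xist and Ddx3y as covariates, Trim33 (edgeR adjusted p = 0.0629), Acvr2a and Thbs1 did not. The share called, 13.4%, lies below the 22.2% of all genes, and the median log2 fold change was 0.08. The lists were written by role, from 91 genes of which 68 have a row, and values for up to 4 genes of each list follow.

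Of 6 genes of ligand handling tested, 1 rose, 1 fell and 4 did not pass. Lrrc32 encodes GARP, a membrane protein that holds latent TGF-beta on the cell surface. It ran from 0.464 to 40.4 CPM in sufficient and from 24.3 to 153 CPM in deficient libraries, and 6 of 11 deficient values exceeded the sufficient range (5.89-fold higher, log2 fold change 2.56 ± 0.52 SE, edgeR adjusted p = 0.00198). Without the 12 libraries its log2 fold change was 2.66 (adjusted p = 0.0745). Thbs1, thrombospondin 1, which can activate the latent form, had medians of 0.814 CPM in sufficient and 0.809 CPM in deficient libraries. Its call as lower (log2 fold change -1.81 ± 0.62 SE, edgeR adjusted p = 0.0404) came with 5 sufficient libraries, up to 12.0 CPM, above the deficient maximum of 1.19 CPM. It was lost without sufficient library 3 (-1.06, adjusted p = 0.153) or 11 (-1.23, adjusted p = 0.153), with limma-voom (-0.94, adjusted p = 0.229) and with the monocyte and macrophage markers as a covariate (-0.71, adjusted p = 0.507). Nrros, another protein that anchors latent TGF-beta, had a log2 fold change of -0.39 (edgeR adjusted p = 0.0637), and the integrin chain Itgav one of 0.36 (edgeR adjusted p = 0.293).

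Of 6 other receptors of the family tested, 1 rose and 5 did not pass. Acvr2a, a type II receptor for activins, averaged 4.45 CPM ± 3.14 (SD, n = 12) and 9.13 CPM ± 3.43 (SD, n = 11), a 2.11-fold rise (edgeR adjusted p = 0.0450). In run 1 alone its log2 fold change was 0.33 (adjusted p = 0.784), and in run 2 alone 1.87 (adjusted p = 0.0112). Acvr1b, a type I activin receptor, had a log2 fold change of -0.61, Eng, the coreceptor endoglin, of -1.09, and Bmpr1a, a receptor for bone morphogenetic proteins, of -0.53, with adjusted p from 0.103 to 0.302. Of the other SMADs, Smad1, a transducer of bone morphogenetic protein signals, averaged 5.66 CPM ± 8.88 (SD, n = 12) and 17.4 CPM ± 9.42 (SD, n = 11; log2 fold change 1.72 ± 0.74 SE, edgeR adjusted p = 0.0952). Smad1 passed without the 12 libraries with both Xist and a Y-linked transcript (log2 fold change 4.59, edgeR adjusted p = 0.00369). It also passed in run 2 alone (2.44, edgeR adjusted p = 0.0365) and in DESeq2 (adjusted p = 0.0306). In run 1 alone (1.06, edgeR adjusted p = 0.669) and with limma-voom (2.57, adjusted p = 0.0508) it did not pass. Smad5 had a log2 fold change of 0.14 (edgeR adjusted p = 0.593).

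Of 15 nuclear cofactors of the SMADs, 2 rose, 1 fell and 12 did not pass. E2f4 and Rbl1, which encode E2F4 and the Rb relative p107 that join SMAD3 in repressing genes of the cell cycle, were 1.26-fold and 1.44-fold higher (edgeR adjusted p = 0.0161 and 0.00824). Zeb2, a SMAD-binding zinc finger repressor, was 2.82-fold lower, at 34.1 CPM ± 29.3 (SD, n = 11) against 95.8 CPM ± 50.7 (SD, n = 12; edgeR adjusted p = 0.0164), and 7 of 11 deficient values were under the sufficient range. The acetyltransferase gene Ep300 had a log2 fold change of -0.36 (edgeR adjusted p = 0.0635). Ep300 passed in DESeq2 (adjusted p = 0.0459) and limma-voom (adjusted p = 0.0343). In edgeR it passed with T cell markers (adjusted p = 0.0280) or monocyte and macrophage markers (adjusted p = 0.0480) as a covariate. Some edgeR fits with 1 library left out also called it (lowest adjusted p = 0.00199), but the fit without sufficient libraries 9, 10 and 11 did not (adjusted p = 0.192). Macrophages also express Zeb2, and with their summed markers as a covariate its log2 fold change went from -1.50 to -0.98 and still passed (adjusted p = 0.0381). Without sufficient libraries 9, 10 and 11 it was -1.36 (adjusted p = 0.0554), and E2f4 was 0.34 (adjusted p = 0.0514).

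Of 20 genes of receptor and SMAD turnover, 1 rose and 19 did not pass. The riser was Trim33, whose product binds SMAD2 and SMAD3 and can attach ubiquitin to SMAD4, at 156 CPM ± 32.9 (SD, n = 11) against 111 CPM ± 29.3 (SD, n = 12; 1.35-fold, edgeR adjusted p = 0.0204). With the monocyte and macrophage markers as a covariate its log2 fold change went from 0.44 to 0.27 and did not pass (adjusted p = 0.114), and without the 12 libraries it was 0.73 (adjusted p = 0.0442). Uchl5, Pmepa1 and Strap had log2 fold changes of 0.28, 1.01 and 0.19, with adjusted p from 0.0920 to 0.156. None of the 7 genes of the TAK1 kinase branch passed in edgeR over both runs, and 1, Tab1, had an unadjusted p under 0.05. Log2 fold changes were -0.27 for Tab1, 0.35 for Tab3, 0.24 for Traf4 and 0.16 for Xiap. Tab1 passed in DESeq2 (adjusted p = 0.0483) and in some edgeR fits with 1 library left out (lowest adjusted p = 0.0213). Tab3 passed in edgeR in run 2 alone (0.60, adjusted p = 0.0382).

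Of 13 genes that TGF-beta can induce, 1 rose, 1 fell and 11 did not pass, with a median log2 fold change of 0.23. The genes that moved encode inhibitors of cyclin-dependent kinases and went in opposite directions. Cdkn1a, the p21 gene, averaged 29.7 CPM ± 21.0 (SD, n = 12) and 67.0 CPM ± 56.6 (SD, n = 11), a 2.22-fold rise (edgeR adjusted p = 0.0416), and is also a target of p53. Cdkn1b, the p27 gene, fell 1.48-fold (edgeR adjusted p = 0.0384). Neither passed without sufficient libraries 9, 10 and 11 (log2 fold changes 1.17 and -0.61, adjusted p = 0.0842 and 0.0760) or without deficient libraries 7 and 9 (0.72 and -0.49, adjusted p = 0.187 and 0.110), and Cdkn1a did not with limma-voom (adjusted p = 0.0605). Tgfbi, a secreted matrix protein named for its induction by TGF-beta, had a log2 fold change of -1.09 (edgeR adjusted p = 0.105) and of 0.06 with the monocyte and macrophage markers as a covariate, and Pmepa1, a feedback inhibitor, of 1.01 (edgeR adjusted p = 0.149).

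**Figure D4:**
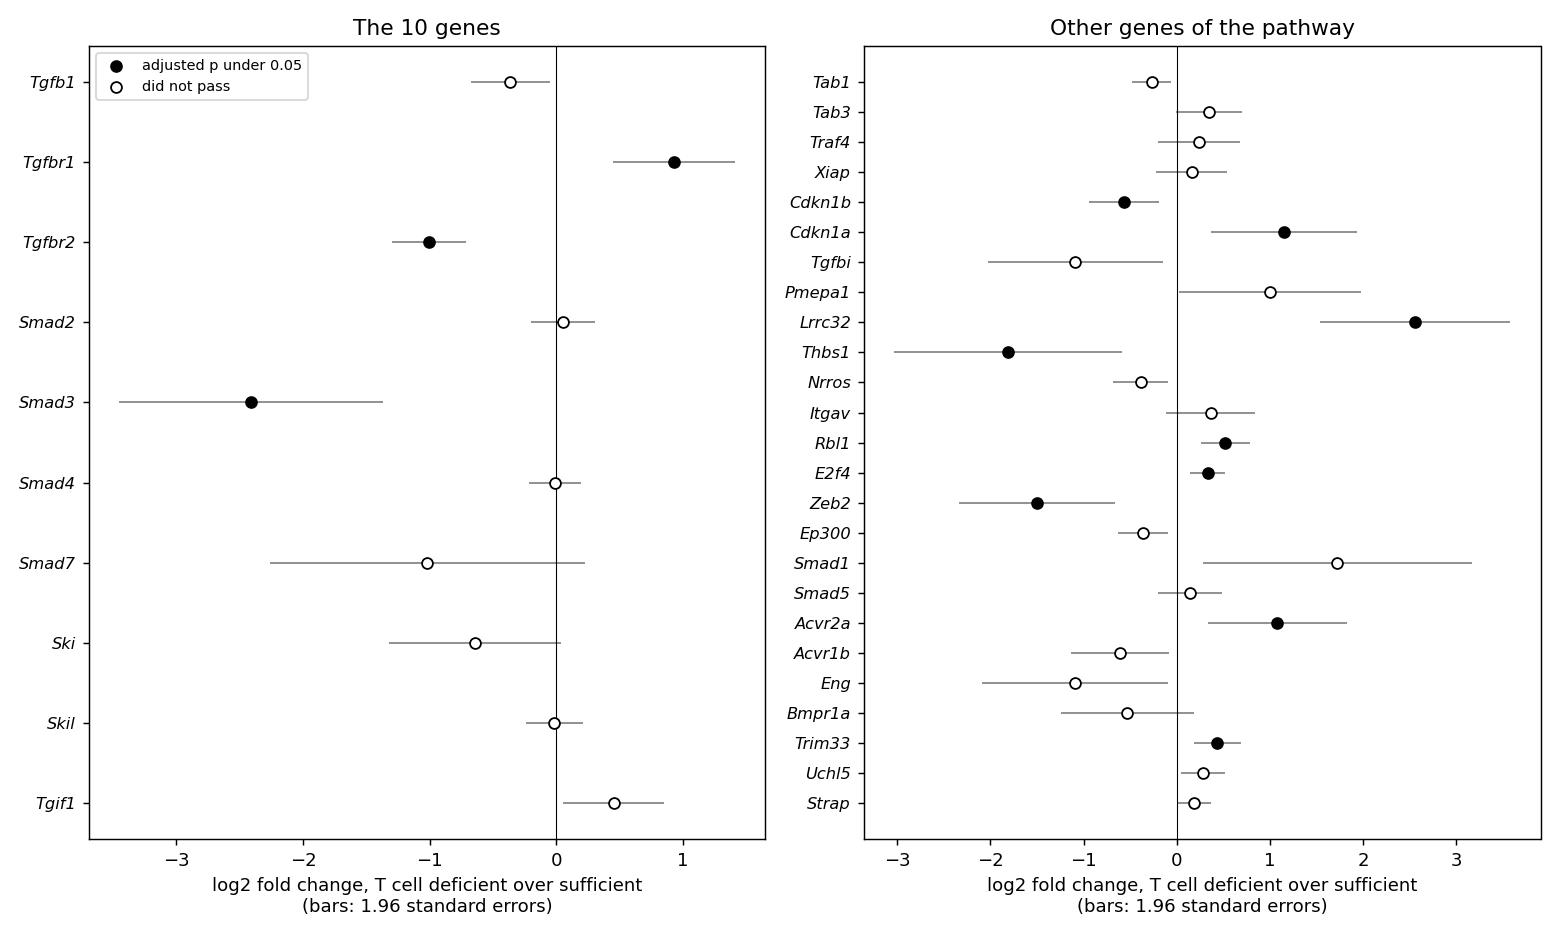
Log2 fold change of T cell deficient over sufficient lymphomas for the 10 genes (left) and the named genes of the pathway lists (right). Bars are 95% intervals, and filled points passed edgeR's test over all genes. Tgfbr2, Smad3 (-2.41) and Tgfbr1 (0.93) passed among the 10, and Lrrc32 (2.56) is highest on the right.

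Some of these genes also differed between the sequencing runs. The runs held different lymphomas, so the run and the lymphomas in it cannot be told apart. With group in the model, Tgfbr2 (log2 difference 0.41 ± 0.15 SE), Tgfb1 (0.42 ± 0.16), Smad2 (0.34 ± 0.13) and Smad7 (1.74 ± 0.63) were higher in run 2, with edgeR adjusted p from 0.0323 to 0.0410. These are 4 of 10 genes beside 36.3% of all genes tested. With the size factors of DESeq2 in place of TMM, Tgfb1 was not called, and with limma-voom Smad7 was not, which left 3 genes in each. The interaction of run and group called 0 of the 10 genes and 0% of all genes tested, by edgeR and by limma-voom, and 723 genes, none of the 10 among them, had an unadjusted p under 0.05 in edgeR.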

How the data were processed

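RNA-seq libraries of splenic B lymphoma cells were made with a TruSeq kit, per the labels' protocols. The authors deposited raw counts for 23 libraries, CPM scaled to the column total, and a comparison of their own with log2 fold changes, p-values and their adjusted form. The notes on processing that the submitters gave name mm10, GRCm38 and limma. The sources used here give no aligner, counting tool or strand setting. The repeat library of sufficient lymphoma 1 was not analysed here, and 1 column was matched to sufficient lymphoma 4 by its number. The labels list the 23 lymphomas as separate samples and do not say that each came from its own mouse, so p-values measure the spread between these samples. No pair of libraries in a group agreed within sampling noise. Each gene in the table has more than 1 CPM in at least 7 libraries.

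Counts were tested with edgeR 4.0.16 (R 4.3.3): filterByExpr, which removed 120 genes, TMM scaling, and the robust quasi-likelihood test with run and group, with Benjamini-Hochberg adjustment over 11020 genes. A standard error is the log2 fold change over the square root of F, and 95% intervals are 1.96 standard errors. Log2 CPM used a prior count of 2. Permutations were drawn 100000 times within runs, or enumerated within 1 run. DESeq2 1.42.0 and limma-voom (limma 3.58.1) were alternatives, beside other scalings, filters, thresholds, covariates and libraries left out. The code was tested on simulated counts. Intervals and floors cover counting and replicate error only.

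The members, the 7 pathway lists and the 9 marker lists were chosen with earlier results of these data known. All members are named, and up to 4 genes of each pathway list by smallest p. The likeness rule took the 3 nearest genes for the 2 members with the smallest p.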

Additional observations from a re-analysis of the deposited data

Results flagged for a closer look

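Within each group of 1 run, libraries that stood far from the others were looked for in 40 sets of 5 to 7 values, and 6 were found. Chance gives about 1 in 20 for normally distributed values in independent sets. These values were CPM without a log scale and the sets shared libraries, so that rate may not hold here. T cell deficient library 6 stood above the other 5 of its run for Tgfb1 (257.4 CPM, the next at 168.9) and Tgif1 (247.9 CPM, the next at 143.8). Deficient library 5 stood out for Smad3 (26.5 CPM, the next at 4.98). Deficient library 8 did so for Skil in run 1 (146.4 CPM, the next at 99.3). Among sufficient libraries of run 2, library 9 stood out for Tgfbr2 (561 CPM, the next at 419) and library 12 for Smad4 (118.9 CPM, the next at 85.1). Without deficient library 5 or any other single library, Smad3 still passed (log2 fold changes from -2.88 to -2.25), as did Tgfbr2 without any single library (-1.06 to -0.91).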

How the results depend on the processing

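With any 1 library left out, 3 to 4 of the 10 genes were called, 1945 to 2783 of all genes and 6 to 12 of the other pathway genes, and Tgfbr1 (log2 fold changes 0.85 to 1.05), Tgfbr2 and Smad3 passed in each of these 23 fits. With run 1 alone 0 of the 10, 0 other pathway genes and 0 genes in all were called by edgeR (3 of the 10 had an unadjusted p under 0.05), and with run 2 alone 1359 genes in all. Without the 12 libraries with both Xist and a Y-linked transcript, which leaves 4 sufficient and 7 deficient libraries, these counts were 1 of the 10, 3 and 290. Without the 3 libraries above 20 CPM, chosen after seeing the data, 2 other pathway genes and 1470 genes in all were called. At an adjusted p under 0.01, 2 other pathway genes and 1027 genes in all were called, and 14 other pathway genes at 0.1.

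Smad2, Smad4 and Skil changed sign around 0 without being called. Smad2 was -0.026 without the 3 libraries and -0.0025 to 0.11 with 1 library left out. Smad4 was 0.059 with library totals only, 0.052 with the replicate block, 0.14 in run 1, 0.0096 with Xist and Ddx3y and 0.0092 with macrophage markers as covariates, and -0.081 to 0.058 with 1 library left out. Skil was 0.052 with library totals only, 0.030 with no run term, 0.0091 with the replicate block, 0.19 in run 2, 0.058 with the library total as covariate, 0.076 without deficient libraries 7 and 9, and -0.065 to 0.032 with 1 library left out. Among the other pathway genes, Traf4 was -0.13 in run 2, Smad5 -0.0014 in run 1, and Tgfbi 0.062 and Eng 0.0037 with macrophage markers as covariate. The cause was not tested. DESeq2, limma-voom, other scalings and filters kept the calls of Tgfbr1, Tgfbr2 and Smad3.

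Same-numbered libraries of the groups share only a number: their residuals correlated from -0.277 to 0.290 over 11 pairs, and 1 library correlated best with its own number. With the number as a replicate block, 4 of the 10 genes were called, Tgfb1 in addition (log2 fold change -0.45, adjusted p = 0.0453), and 4 other pathway genes instead of 9. Depth limits Smad7 most, at 5 counts in its lowest library.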

Other observations

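Single lymphomas held much of the spread of these genes. T cell sufficient library 5 had the lowest level of its group for 4 of the 10 genes, Tgfbr2 (197 CPM), Smad2 (46.5 CPM), Smad3 (3.48 CPM) and Smad7 (1.57 CPM), and the lowest ratio of Tgfbr2 to Tgfbr1 of its group (2.69). For Tgfbr2 and Smad3 its values lay close to the deficient medians of 196 and 3.34 CPM. T cell deficient library 6 had the highest level of its group for 5 of the 10 genes, Tgfb1, Tgfbr2, Smad7, Skil and Tgif1, and the lowest for Ski (9.75 CPM).

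Deficient libraries 7 and 9 were the lowest 2 of their group for Tgfb1, Tgfbr1 and Tgfbr2, and their summed levels of 3 neutrophil markers, 104 and 46.9 CPM, were the highest of the deficient group, whose median was 4.87 CPM. Their summed B cell markers, 3480 and 4073 CPM, were the lowest 2 of all libraries. Sufficient library 5 held 49.4 CPM of the neutrophil markers, the highest of its group. Without both libraries the rise of Tgfbr1 was larger (log2 fold change 1.19, adjusted p = 0.000945), and Tgfbr2 and Smad3 had log2 fold changes of -0.90 and -2.52 and still passed (adjusted p = 0.00103 and 0.00643). What sets these lymphomas apart was not tested.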
